A study of Mus musculus with 11 samples.

Results

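Messenger RNA does not last: its poly(A) tail is shortened, its cap removed and its body digested, and a surveillance system destroys transcripts with a premature stop codon. The 40 genes described here encode that machinery. They were chosen by name, as members of the decay and nonsense surveillance complexes, and all 40 were found among the 52661 genes of the deposited expression table. They fall into the CCR4-NOT deadenylase complex (10 genes), other deadenylases (3), the decapping complex (5), 5′-to-3′ exonucleases (2), the RNA exosome (10), nonsense-mediated decay (7) and the ZFP36 family of proteins that bind AU-rich elements (3). Of 401633 entries in the deposited splicing table, 1674 belonged to them, 1413 entries were covered by 10 or more reads in each library, and 382 of these in 36 genes varied enough to be tested, of 60127 tested in all.

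KHSRP (also called KSRP) is an RNA-binding protein with KH domains that binds AU-rich elements and is known to recruit PARN, the exosome and decapping enzymes to the messages it holds. FUBP1 belongs to the same protein family and acts both on transcription and on splicing. RBM38 binds RNA through an RNA recognition motif and is known for regulating message stability and splicing. Exons whose length is not a multiple of 3 matter for this machinery, because skipping one shifts the reading frame and commonly exposes a stop codon upstream of an exon junction, the signal that nonsense-mediated decay reads.

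Polyadenylated RNA had been sequenced from N2A (Neuro-2A) cells, which derive from a mouse neuroblastoma, at 48 h after siRNA transfection. Every library came from cells that had received a pool of siRNAs. The pools were non-targeting (siNT, 3 libraries), or aimed at Fubp1, at Khsrp, at Khsrp and Fubp1 together (the double knockdown), or at Rbm38 (2 libraries each). The design text calls the replicates biological. A knockdown lowers a message and does not remove the gene, and all results come from 1 cell line.

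The siRNAs lowered their targets, as the authors' deposited table shows with 1 RPKM value (reads per kilobase of transcript, scaled to library depth) per group. Fubp1 went from 180 RPKM in siNT to 27.9 in its single and 19.8 in the double knockdown, Khsrp from 47.0 to 8.06 and 6.77, and Rbm38 from 34.5 to 4.03, per the authors' deposited table. Khsrp also stood at 33.8 RPKM in the Rbm38 knockdown (log2 fold change -0.70, FDR 0.024, authors' deposited table). Of 8 markers of sympathetic neuroblasts, 7 were detected in every group, among them Hand2, Phox2a and Tubb3; of 7 markers of fibroblasts, blood, endothelium, glia and liver, none exceeded 3.3 RPKM in any group of the authors' deposited table, and Alb and Col3a1 were at 0 throughout. In the double knockdown the neuroblast marker Isl1 fell (log2 fold change -1.06, FDR 4.2e-11, authors' deposited table), and among the other markers Gfap rose from 0.33 to 2.14 RPKM. The part of these shifts in the results below was not tested. Since the RNA is from bulk cultures, fewer cells of a kind and less RNA per cell cannot be told apart. The libraries carry numbers 1 to 4 (siNT A and B, both Fubp1 libraries) or 8 to 27 (siNT C and the rest), so this number set differs between groups. Median reads per tested event of these genes ran from 128 (double knockdown B) to 367 (siNT B).

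**Figure D1:**
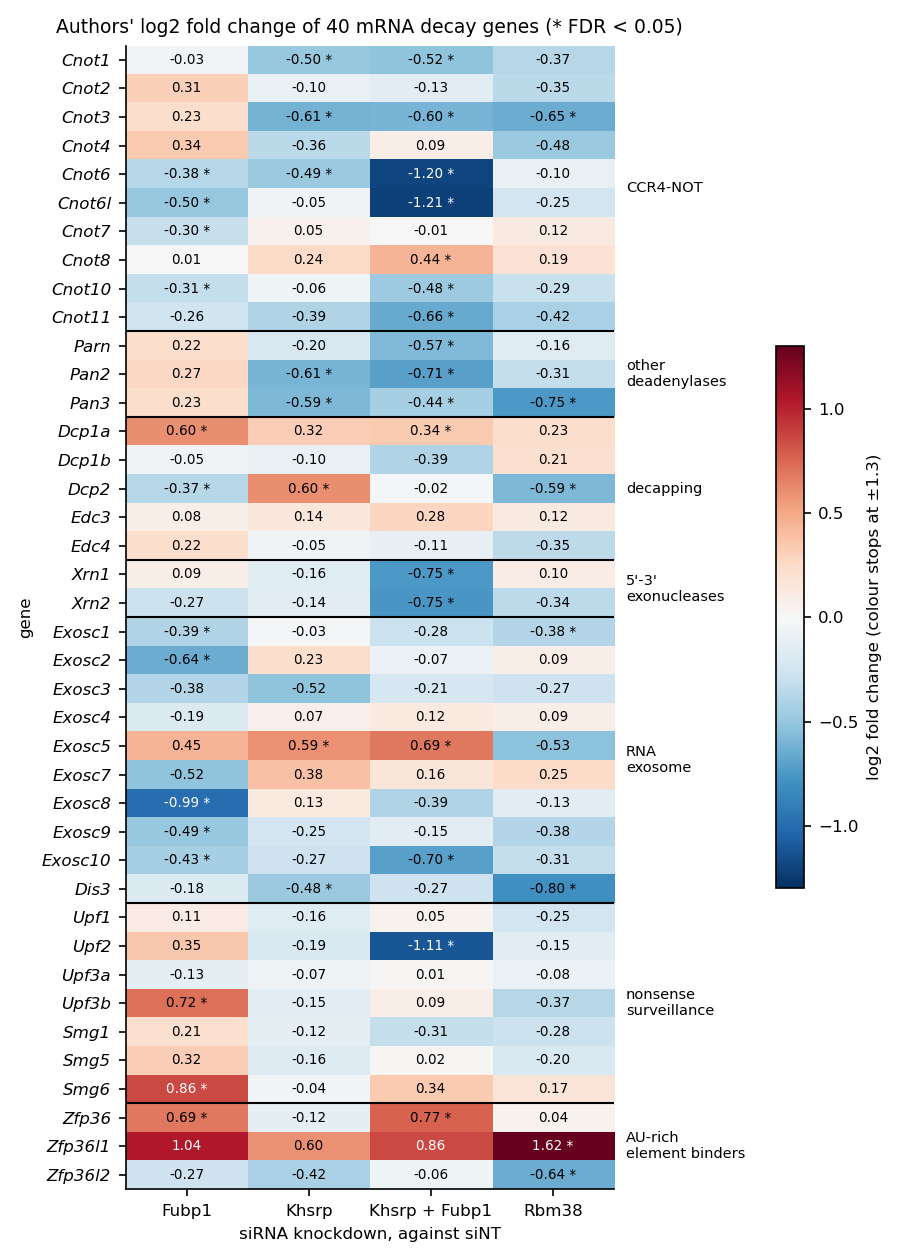
Authors' deposited log2 fold change of each of the 40 genes (rows, grouped by role) in the 4 knockdowns against siNT (columns); blue is lower, red is higher, and an asterisk marks an FDR under 0.05. The double knockdown column holds the most asterisks, 13 of them on lower genes, led by Cnot6, Cnot6l and Upf2.

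In each knockdown a minority of the decay genes changed in message level, and more of them fell than rose. By the FDR of 0.05 in the authors' deposited table, 17 of the 40 genes changed in the double knockdown (4 higher, 13 lower), 14 in the Fubp1 knockdown (4 higher, 10 lower), 8 in the Khsrp knockdown (2 higher, 6 lower) and 7 in the Rbm38 knockdown (1 higher, 6 lower). Among all 23378 genes tested by the authors, 26.8%, 22.5%, 8.16% and 15% changed in these knockdowns. Lower genes alone made up 13.7% of all genes in the double knockdown, 10.5% in the Fubp1, 4.34% in the Khsrp and 7.02% in the Rbm38 knockdown. Higher genes made up 13.2%, 12%, 3.82% and 7.96%. Abundant genes pass more often: among genes of at least 1 RPKM, where 39 of the 40 belong, 21.4%, 17.2%, 7.05% and 11.9% were lower and 19.5%, 18.2%, 6.01% and 11.3% higher.

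The median log2 fold change of the 40 genes was -0.14 in the double, -0.01 in the Fubp1, -0.12 in the Khsrp and -0.26 in the Rbm38 knockdown, against 0.001, 0.0, -0.003 and 0.023 over all genes of the authors' deposited table. The 4 comparisons share the 3 siNT libraries. None of the 40 passed in all 4 knockdowns, 4 passed in 3 of them (Cnot3, Cnot6, Pan3 and Dcp2), 10 in 2, 14 in 1 and 12 in none. With 1 value per group, levels carry no error here, and the expression calls are those of the authors.

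Levels in control cells spanned a wide range. Cnot1, the scaffold of CCR4-NOT, was the most abundant member at 207 RPKM in siNT, followed by the deadenylase Cnot7 at 187 and Cnot6 at 149 RPKM (authors' deposited table). The messages of the decapping genes were low by comparison, from 5.55 RPKM for Dcp1b to 32.9 for Edc4 in the authors' deposited table. Zfp36l1 lay at 0.14 RPKM in siNT, so its fold changes rest on very few reads.

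CCR4-NOT removes poly(A) tails with 2 kinds of catalytic subunit, CNOT6 or CNOT6L and CNOT7 or CNOT8, held on CNOT1. The first kind had the lowest log2 fold changes of the 40 genes in the double knockdown. Cnot6 measured 149 RPKM in siNT, 123 in the Fubp1, 90.8 in the Khsrp, 54.9 in the double and 116 in the Rbm38 knockdown (authors' deposited table). Cnot6 fell in the double (log2 fold change -1.20, FDR 1.2e-15), the Fubp1 (-0.38, FDR 0.031) and the Khsrp knockdown (-0.49, FDR 0.0089) of the authors' deposited table. Cnot6l measured 42.0, 26.8, 29.9, 12.7 and 29.4 RPKM in the same order, and fell in the double (-1.21, FDR 3.2e-15) and the Fubp1 knockdown (-0.50, FDR 0.0032) by the authors' deposited table. Both paralogs thus stood lower in the double than in either single knockdown; the authors' deposited table holds no test of that difference.

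The partner nucleases behaved otherwise. Cnot8 measured 34.1 RPKM in siNT and 41.2 in the double knockdown and was the only CCR4-NOT gene to rise there (log2 fold change 0.44, FDR 0.017, authors' deposited table). Cnot7 fell in the Fubp1 knockdown (-0.30, FDR 0.042) and had a log2 fold change of -0.01 in the double knockdown, by the authors' deposited table.

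The scaffold and its docked modules were lower in several knockdowns. Cnot1 fell in the Khsrp (log2 fold change -0.50, FDR 0.049) and double knockdowns (-0.52, FDR 0.012) of the authors' deposited table. Cnot3, part of the NOT module, fell in the Khsrp (-0.61, FDR 0.042), double (-0.60, FDR 0.017) and Rbm38 knockdowns (-0.65, FDR 0.018), by the authors' deposited table. Cnot11 fell in the double knockdown (-0.66, FDR 0.0012), and its partner Cnot10 in the double (-0.48, FDR 5.2e-04) and the Fubp1 knockdown (-0.31, FDR 0.042), in the authors' deposited table. In all, 6 of the 10 CCR4-NOT genes were lower and 1 higher in the double knockdown, 4 lower in the Fubp1, 3 lower in the Khsrp and 1 lower in the Rbm38 knockdown. Cnot2 and Cnot4 passed in none.

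PARN and the PAN2-PAN3 pair are the other deadenylases, and PARN is among the enzymes KHSRP binds. All 3 fell in the double knockdown of the authors' deposited table: Pan2 from 20.7 to 12.5 RPKM (log2 fold change -0.71, FDR 8.7e-05), Parn from 26.5 to 12.9 RPKM (-0.57, FDR 2.0e-04) and Pan3 from 25.2 to 18.5 RPKM (-0.44, FDR 0.046). Pan2 (-0.61, FDR 0.0036) and Pan3 (-0.59, FDR 0.015) also fell after Khsrp knockdown alone, and Pan3 after Rbm38 knockdown (-0.75, FDR 4.2e-04), per the authors' deposited table. Parn measured 16.4 RPKM after Khsrp knockdown, with a log2 fold change of -0.20 that did not pass (FDR 0.43, authors' deposited table). The log2 ratio of its RPKM values was further from 0 there, at -0.69. In the Fubp1 knockdown none of the 3 passed, and their log2 fold changes lay between 0.22 and 0.27.

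DCP2 removes the cap, and DCP1A and DCP1B activate it. By the authors' test Dcp2 changed in opposite directions in the single knockdowns. It rose after Khsrp knockdown (log2 fold change 0.60, FDR 1.7e-07) and fell after Fubp1 (-0.37, FDR 0.0023) and Rbm38 knockdown (-0.59, FDR 6.2e-07) in the authors' deposited table. The double knockdown, with both siRNA pools, had a log2 fold change of -0.02 (FDR 0.98, authors' deposited table). The RPKM values of Dcp2 were 27.4 in siNT, 26.9 in the Fubp1, 32.2 in the Khsrp, 33.6 in the double and 19.6 in the Rbm38 knockdown, so the RPKM of the double knockdown lay close to that of the Khsrp knockdown. The RPKM ratios were smaller than the tested changes, at -0.03 (log2) for the Fubp1 and 0.23 for the Khsrp knockdown, and the RPKM after Fubp1 knockdown was close to that of siNT (authors' deposited table). Dcp1a rose in the Fubp1 (6.14 to 11.01 RPKM, log2 fold change 0.60, FDR 1.2e-04) and double knockdowns (8.42 RPKM, 0.34, FDR 0.049) of the authors' deposited table. Dcp1b, Edc3 and Edc4, the last a scaffold of the complex, passed in none.

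XRN1 digests decapped messages in the cytoplasm and XRN2 RNA in the nucleus. Both fell in the double knockdown, and neither passed the FDR in another. Xrn1 measured 13.4 RPKM in siNT, 14.6 in the Fubp1, 10.3 in the Khsrp, 8.99 in the double and 11.5 in the Rbm38 knockdown (double: log2 fold change -0.75, FDR 7.1e-07, authors' deposited table). Xrn2 measured 91.7, 76.1, 77.1, 51.3 and 70.8 RPKM in the same order (double: -0.75, FDR 3.2e-06, authors' deposited table). Its RPKM was thus below siNT in all 4 knockdowns, with log2 fold changes of -0.34 in the Rbm38 (FDR 0.094), -0.27 in the Fubp1 (FDR 0.18) and -0.14 in the Khsrp knockdown (FDR 0.70) of the authors' deposited table.

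The RNA exosome digests RNA from the 3′ end; EXOSC1 to EXOSC9 build its core, and DIS3 and EXOSC10 carry its nuclease activity. In the Fubp1 knockdown 5 of the 10 genes fell and none rose. Exosc8 had the largest change there, from 67.7 to 35.5 RPKM (log2 fold change -0.99, FDR 9.1e-05, authors' deposited table), and measured 69.2, 48.7 and 58.7 RPKM in the Khsrp, double and Rbm38 knockdowns. Exosc2 (-0.64, FDR 0.011), Exosc9 (-0.49, FDR 0.020), Exosc10 (-0.43, FDR 0.0065) and Exosc1 (-0.39, FDR 0.030) were the others in the authors' deposited table. Of these 5, only Exosc10 also passed in the double knockdown (59.7 to 35.03 RPKM, -0.70, FDR 1.7e-06, authors' deposited table).

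Of the nucleases, Dis3 did not pass in the Fubp1 or double knockdown. It fell in the Rbm38 knockdown from 30.1 to 15.6 RPKM (log2 fold change -0.80, FDR 1.3e-06) and in the Khsrp knockdown to 21.3 RPKM (-0.48, FDR 0.014), in the authors' deposited table. Exosc1 was the other exosome gene lower after Rbm38 knockdown (-0.38, FDR 0.046, authors' deposited table). Exosc5 rose from 21.7 to 37.8 RPKM in the Khsrp (0.59, FDR 0.043) and 41.7 in the double knockdown (0.69, FDR 0.0040), by the authors' deposited table. It did not pass in the Fubp1 (27.9 RPKM, 0.45, FDR 0.10) or the Rbm38 knockdown (16.9 RPKM, -0.53, FDR 0.068), per the authors' deposited table. Exosc3, Exosc4 and Exosc7 passed in none.

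In nonsense-mediated decay, UPF1 is the helicase that marks a message, UPF2 and UPF3 link it to exon junctions, SMG1 is the kinase that activates UPF1, and SMG5 and SMG6 act on the marked message, SMG6 as an endonuclease. Upf2 fell in the double knockdown: 24.1 RPKM in siNT, 31.3 in the Fubp1, 20.6 in the Khsrp, 10.9 in the double and 21.4 in the Rbm38 knockdown (double: log2 fold change -1.11, FDR 8.7e-13, authors' deposited table). In the Fubp1 knockdown its log2 fold change was 0.35 (FDR 0.053, authors' deposited table). Smg6 rose after Fubp1 knockdown from 9.16 to 15.7 RPKM (0.86, FDR 5.0e-07), as did Upf3b from 27.6 to 47.8 RPKM (0.72, FDR 6.1e-05), in the authors' deposited table. None of the 7 genes passed in the Khsrp or Rbm38 knockdown, and Upf1, Upf3a, Smg1 and Smg5 passed in none.

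ZFP36 proteins bind AU-rich elements and bring CCR4-NOT to them. Zfp36 rose from 4.08 RPKM to 6.10 in the Fubp1 (log2 fold change 0.69, FDR 0.026) and 7.89 in the double knockdown (0.77, FDR 0.0089), in the authors' deposited table. Zfp36l2 fell from 31.3 to 20.5 RPKM in the Rbm38 knockdown (-0.64, FDR 0.034, authors' deposited table). Zfp36l1 rose there from 0.14 to 0.54 RPKM (1.62, FDR 0.0017, authors' deposited table), levels close to 0 throughout.

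**Figure D2:**
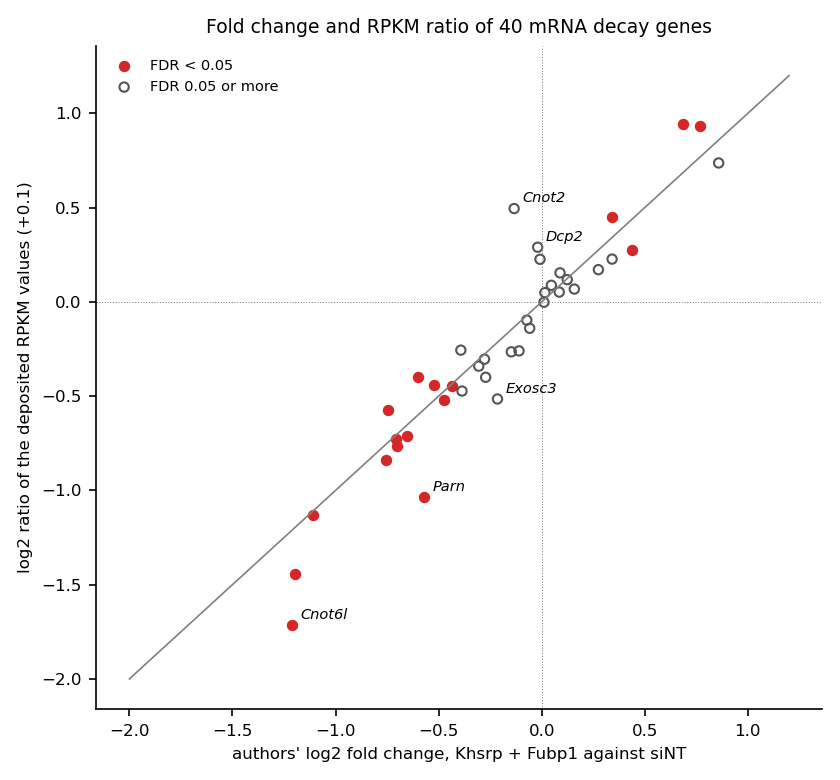
For the 40 genes in the double knockdown, the log2 ratio of the deposited RPKM values (0.1 added to each) against the authors' deposited log2 fold change; the line marks equality and red points passed the FDR of 0.05. Cnot2 lies farthest above the line, at -0.13 on the horizontal and 0.50 on the vertical axis, and Cnot6l and Parn lie farthest below it.

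The deposited RPKM values and fold changes did not always match. In the double knockdown the log2 ratio of the RPKM values, with 0.1 added, differed from the deposited log2 fold change by -0.29 to 0.29 in the central 90% of genes of at least 1 RPKM. Cnot2 lay well outside this range: its RPKM was 139 in siNT and 196 there, while its log2 fold change in the authors' deposited table was -0.13 (FDR 0.57), a gap of 0.63. Cnot6l and Parn lay outside on the other side, with gaps of -0.50 and -0.47, although both measures put them lower. Dcp2 (0.31) and Exosc3 (-0.30) lay just outside. In the Khsrp knockdown the central 90% ran from -0.27 to 0.26. Parn (-0.48), Cnot6l (-0.44), Dcp2 (-0.38), Cnot3 (0.315) and Zfp36l2 (0.28) lay outside it. In the Fubp1 knockdown it ran from -0.20 to 0.21, and Dcp2 (0.34), Cnot2 (0.25) and Dcp1a (0.23) lay outside. In the Fubp1 knockdown Cnot2 measured 206 RPKM with a log2 fold change of 0.31 (FDR 0.091, authors' deposited table). Cnot2 was also the gene whose exons changed most.

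Splicing was measured by PSI (percent spliced in), which gives how many of a gene's transcripts contain an exon, retain an intron or take a given splice site, and tested in limma on log2 odds, inclusion reads over exclusion reads. A call needed an adjusted p (Benjamini-Hochberg, over the 60127 tested events) under 0.05 and a difference of mean PSI of 10 points or more. Of the 382 events of the decay genes, 35 were called in the double knockdown (6 higher, 29 lower), 5 in the Fubp1 (1 higher, 4 lower), 2 in the Khsrp (both lower) and 1 in the Rbm38 knockdown (lower). Over all tested events 7.93%, 1.43%, 0.181% and 0.374% were called, so the total for these genes lay near the background. Events called lower made up 5.81%, 1.03%, 0.133% and 0.126% of all, and events called higher 2.12%, 0.397%, 0.0482% and 0.248%. Exon loss made up most of it: 24 of the 115 tested cassette exons were lower in the double knockdown, or 20.9%, against 12.6% of all 20840 cassette exons, and they came from 9 genes. Of the 24, 6 were in Cnot2, 5 in Cnot4, 5 in Upf2 and 3 in Cnot6l. Cnot10, Dcp1a, Smg1, Xrn1 and Xrn2 gave 1 each. Many were neighbours in the same gene and do not count as independent. Only 1 cassette exon was higher in the double knockdown (4.08% of all), and of 164 tested introns 4 were retained more (1.05% of all) and 2 less (1.98%). In all 35 events of the double knockdown both libraries lay outside the range of the 3 siNT libraries. The calls rest on these same libraries, so this separation adds no further evidence for them. It was not counted over all events.

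The authors' own calls, whose criterion is not stated, include 29 of the 35 events of the double knockdown, and 4 of the other 6 have no value in the authors' deposited table. CCR4-NOT genes held 19 of the 35 events (92 tested), nonsense surveillance genes 9 (86 tested) and the exonucleases 5 (31 tested). The other deadenylases (65 tested) and decapping genes (46 tested) held 1 each. Over all tested events 7.93% were called in the double knockdown. The 10 exosome genes had 61 tested events and none was called by limma in any knockdown; 3, 8, 9 and 8 of the 61 had an unadjusted p under 0.05 in the Fubp1, Khsrp, double and Rbm38 knockdowns, and 4 carry the authors' call in the double knockdown. Over all events 15.7%, 11.5%, 26.1% and 12.1% had such a p, and 11.9% carry the authors' call in the double knockdown. Only 9 of the 61 exosome events were cassette exons. Of all cassette exons 12.6% were called lower in the double knockdown, and of all introns 1.98%. Including the events called against siNT in a single knockdown, 36 events in 13 genes were called.

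**Figure D3:**
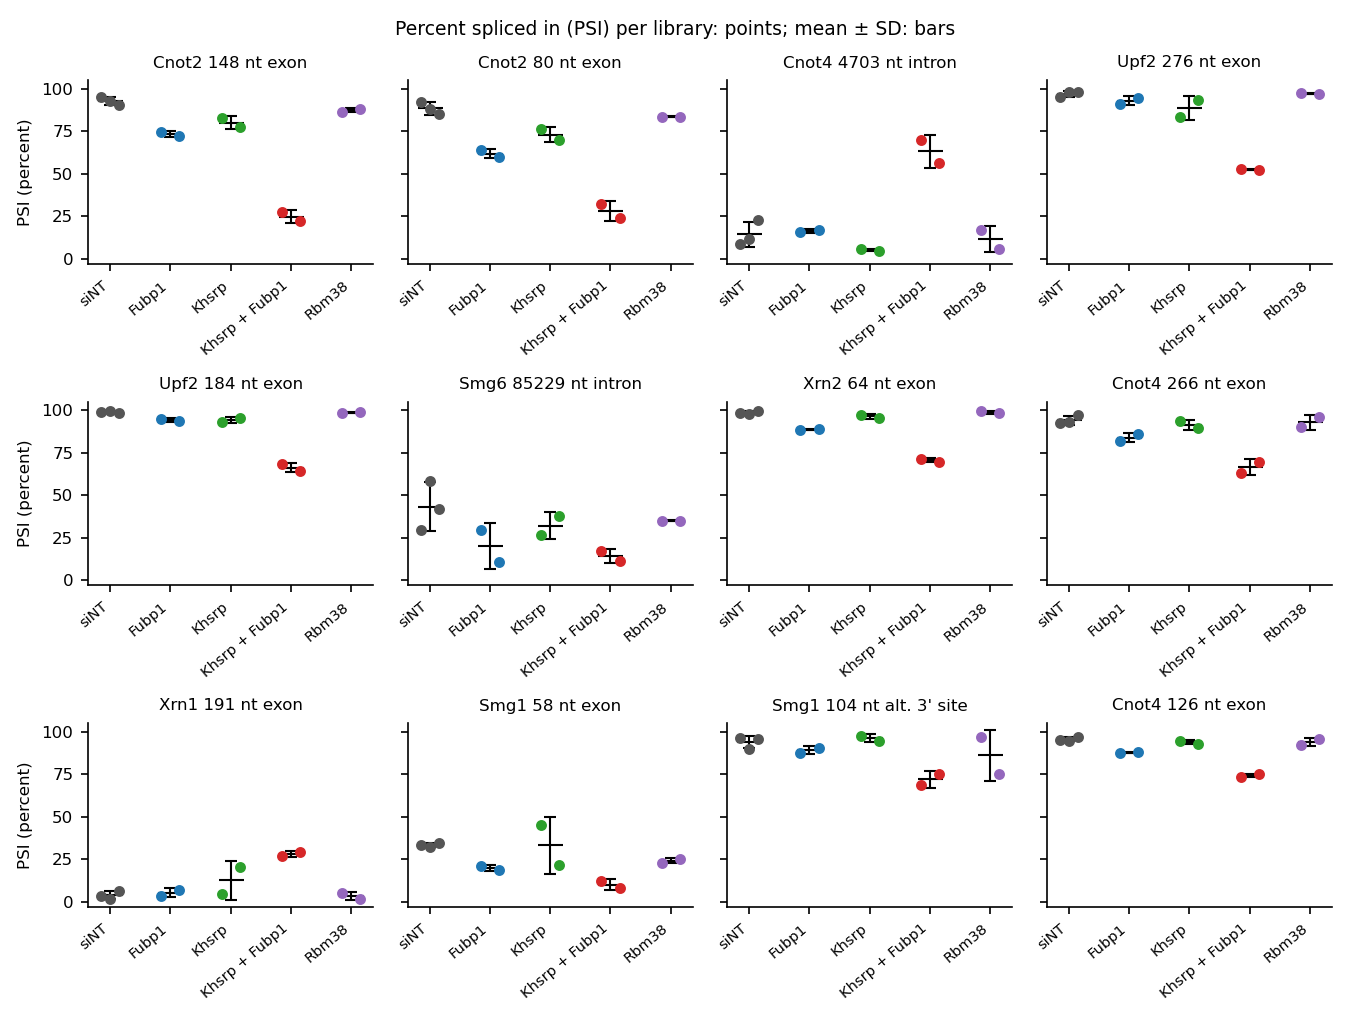
PSI in percent (vertical axis) of each library (points) with the group mean and SD (bars), for the 12 called events with the largest difference of mean PSI, by group. The double knockdown stands apart from the other groups in both Cnot2 exons, both Upf2 exons and the Xrn2 exon, while siNT, Khsrp and Rbm38 libraries overlap in the Smg6 intron.

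CNOT2 belongs to the NOT module, which holds the complex together and contacts its targets. Exons 5 and 7 of Cnot2 were included in most transcripts of control cells and in a minority after double knockdown. Their sequences, from GENCODE vM21 (build GRCm38), are shown with the junction that forms when each is skipped, because neither length is a multiple of 3; in the junctions, 30 bases precede the join and capitals mark the first stop codon in the shifted frame.
Cnot2 exon 5, 148 nt, chr10:116507041-116507188, minus strand: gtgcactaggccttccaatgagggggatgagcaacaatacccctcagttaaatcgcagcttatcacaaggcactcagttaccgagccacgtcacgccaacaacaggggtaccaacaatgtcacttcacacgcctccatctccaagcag
Cnot2 junction of exon 4 to exon 6: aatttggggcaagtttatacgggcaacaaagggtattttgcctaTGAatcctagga
Cnot2 exon 7, 80 nt, chr10:116504035-116504114, minus strand: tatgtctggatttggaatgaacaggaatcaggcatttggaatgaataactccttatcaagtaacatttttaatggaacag
Cnot2 junction of exon 6 to exon 8: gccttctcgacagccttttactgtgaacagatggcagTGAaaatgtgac

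The PSI of Cnot2 exon 5 was 95.01, 92.4 and 90.3 in the siNT libraries, 74.5 and 71.9 in the Fubp1, 82.7 and 77.1 in the Khsrp, 27.4 and 21.8 in the double, and 86.3 and 88.0 in the Rbm38 knockdown. The Fubp1, Khsrp, double and Rbm38 libraries all lay below every siNT library, and the double knockdown lay far below both single ones. Exon 5 fell from 92.6 ± 2.4 (SD, n = 3) to 24.6 ± 4.0 (SD, n = 2) in the double knockdown (log2 odds -5.22 ± 0.26 SE, limma adjusted p = 1.3e-08), and also fell in the Fubp1 (adjusted p = 3.6e-05) and Khsrp knockdowns (adjusted p = 0.0085). The double knockdown differed from the Fubp1 knockdown by -48.6 points (adjusted p = 1.7e-06) and from the Khsrp knockdown by -55.3 points (adjusted p = 6.2e-07).

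Exon 7 of Cnot2 followed the same order. Its PSI was 92.3, 87.9 and 84.7 in siNT, 63.6 and 59.8 in the Fubp1, 76.1 and 69.7 in the Khsrp, 32.3 and 23.8 in the double, and 83.5 and 83.3 in the Rbm38 knockdown. It fell in the double (limma adjusted p = 1.2e-07), Fubp1 (7.1e-05) and Khsrp knockdowns (0.028). Read numbers for exon 5 ran from 803 to 2936 per library and for exon 7 from 661 to 1404. With a term for the library number set, exon 5 differed from siNT by -65.7 points in the double (adjusted p = 1.1e-06), -20.5 in the Fubp1 (2.8e-05) and -10.4 in the Khsrp knockdown (0.40); the Khsrp calls of both exons were also lost without siNT B or without either Khsrp library (adjusted p 0.059 to 0.158), and that of exon 7 without siNT A (0.069).

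**Figure D4:**
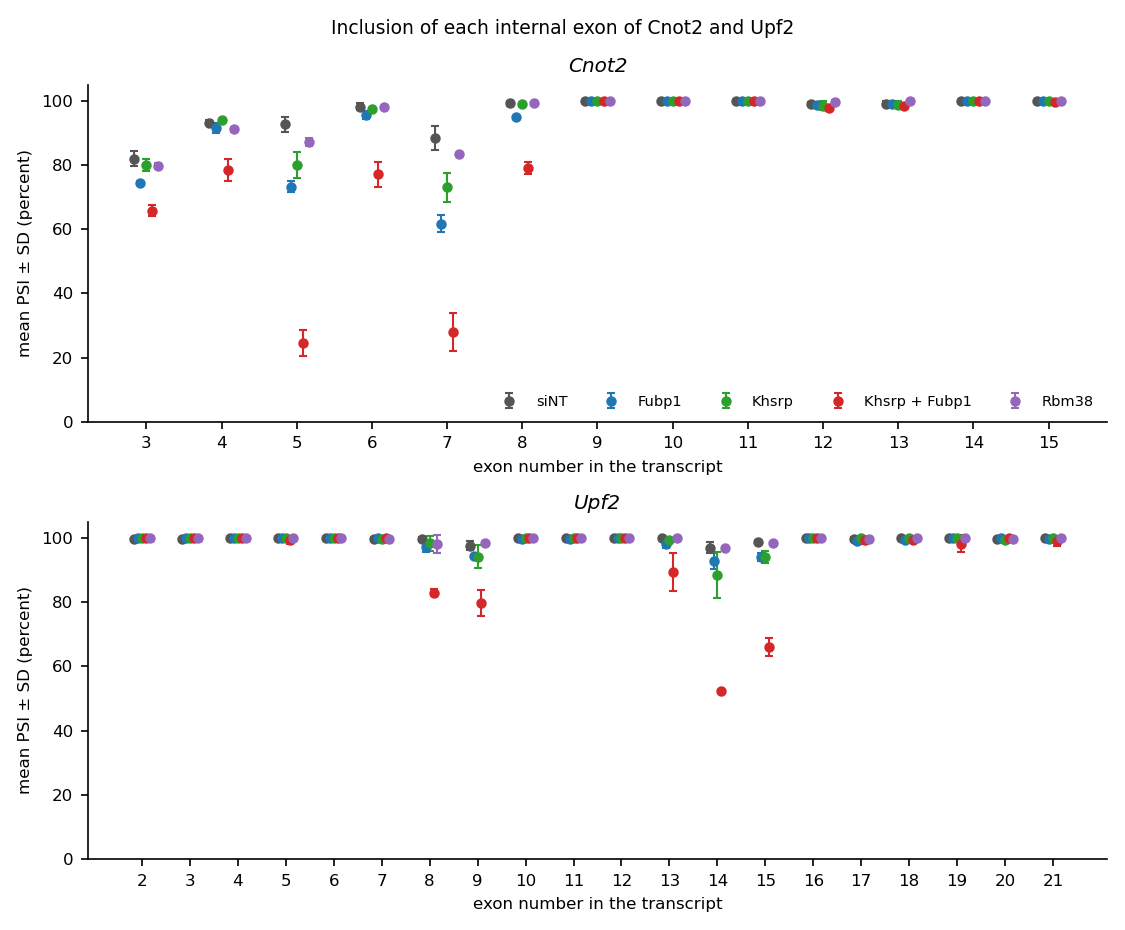
Mean PSI in percent with its SD (vertical axis) of the internal exons of Cnot2 and Upf2 with 10 reads in every library (horizontal axis: exon number in the transcript), by group. Cnot2 exons 3 to 8 and Upf2 exons 8, 9 and 13 to 15 drop in the double knockdown, and the remaining exons stay near 100 in every group.

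The called exons of Cnot2 were neighbours. Exons 3, 4, 6 and 8 fell too in the double knockdown, from 81.8, 93.2, 98.1 and 99.2 to 65.8, 78.3, 77.1 and 79.0 (limma adjusted p between 2.7e-06 and 1.2e-05). Exons 9 to 15, further downstream, had mean PSI between 97.7 and 100 in all groups. Exons 5 to 7 together measure 411 nt, a multiple of 3, so their joint loss keeps the frame by length, whereas loss of exons 5 and 7 with exon 6 kept still forms the junction of exon 4 to exon 6 and its stop. Exon 4, at 67 nt, also shifts the frame when skipped alone. An alternative 3′ splice site of Cnot2 was the last of its 7 called events, with a mean PSI of 92.1 in siNT and 81.3 in the double knockdown (limma adjusted p = 7.0e-05). PSI is measured exon by exon and does not tell which exons a single molecule lacks. Skipped alone, exon 5 leaves 84 of 540 amino acids and exon 7 leaves 192 before the stop, which then lies 1136 and 880 nt upstream of the last exon junction.

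CNOT4 is a ubiquitin ligase that associates with the complex. Its coding exons 2 to 6 all fell in the double knockdown. The 266 nt exon 2, which holds the start codon, had PSI of 92.1, 93.0 and 97.1 in siNT, 81.8 and 85.8 in the Fubp1, 93.3 and 89.3 in the Khsrp, 63.1 and 69.6 in the double and 89.8 and 95.9 in the Rbm38 knockdown (double: limma adjusted p = 3.7e-05; Fubp1: 0.039). The 126 nt exon 6 went from a mean of 95.4 ± 1.2 in siNT (SD, n = 3) down to 74.1 ± 0.98 in the double knockdown (SD, n = 2; adjusted p = 3.7e-06 in limma), and exons 3, 5 and 4 from 94.6, 95.4 and 95.2 to 79.1, 83.2 and 84.0. The Fubp1 call of exon 2 missed the threshold with a library set term (0.077), with a replicate term (0.073) and without siNT A, B or C or either Fubp1 library (0.061 to 0.255).

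A 4703 nt intron of Cnot4 was retained in the double knockdown: its PSI was 8.56, 11.3 and 22.8 in siNT, 15.4 and 16.9 in the Fubp1, 5.55 and 4.62 in the Khsrp, 70.0 and 56.2 in the double and 16.8 and 5.89 in the Rbm38 knockdown (limma adjusted p = 2.6e-04). Both double libraries lay above all 9 others, with as few as 25 reads in a library. The level of Cnot4 did not pass the test there (log2 fold change 0.09, FDR 0.83, authors' deposited table).

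Of the catalytic deadenylase genes, Cnot6l had lower cassette exons and Cnot6 other called events. In Cnot6l, the 158, 228 and 152 nt exons fell in the double knockdown from 99.2, 95.5 and 99.2 to 80.2, 77.2 and 85.0 (limma adjusted p = 1.3e-05, 9.7e-05 and 6.5e-04). Cnot6 instead used an alternative 5′ splice site that adds 15 nt, with PSI of 12.9, 11.3 and 15.6 in siNT, 26.0 and 25.4 in the Fubp1, 15.4 and 19.7 in the Khsrp, 31.5 and 32.0 in the double and 19.7 and 22.1 in the Rbm38 knockdown. This site rose in the double (limma adjusted p = 1.9e-04) and the Fubp1 knockdown (8.8e-04). A 107 nt intron of Cnot6 rose from 6.72 to 16.9 in the double knockdown (limma adjusted p = 0.0024). By the deposited coordinates the 15 nt that the site adds lie within this intron, so these events overlap and do not count as independent. In Cnot10 a 162 nt exon fell in the double knockdown from 99.2 ± 0.24 in siNT (SD, n = 3) down to 81.0 ± 2.1 (SD, n = 2; adjusted p = 7.0e-07 in limma), with 98.7 to 99.4 in the single Fubp1 and Khsrp knockdowns. Its difference from the Fubp1 knockdown, -18.4 points (adjusted p = 3.4e-05), was 1 of 2 such calls that held with a library set term, beside Cnot2 exon 5.

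UPF2 bridges UPF1 and UPF3 on the exon junction complex. Upf2 exons 14 and 15 were near full inclusion in control cells, and their sequences (GENCODE vM21, GRCm38) are shown because these exons had the largest changes among the surveillance genes; exon 14 keeps the frame when skipped and exon 15 does not.
Upf2 exon 14, 276 nt, chr2:6027213-6027488, plus strand: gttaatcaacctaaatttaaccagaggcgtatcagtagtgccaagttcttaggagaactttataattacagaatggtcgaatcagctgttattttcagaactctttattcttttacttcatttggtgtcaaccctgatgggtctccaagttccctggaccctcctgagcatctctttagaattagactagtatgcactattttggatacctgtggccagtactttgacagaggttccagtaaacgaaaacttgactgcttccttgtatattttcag
Upf2 exon 15, 184 nt, chr2:6029362-6029545, plus strand: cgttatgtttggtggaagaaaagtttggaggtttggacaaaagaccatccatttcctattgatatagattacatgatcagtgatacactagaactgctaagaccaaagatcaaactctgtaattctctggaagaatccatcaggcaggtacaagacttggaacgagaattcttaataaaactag
Upf2 junction of exon 14 to exon 16, stop codon in capitals: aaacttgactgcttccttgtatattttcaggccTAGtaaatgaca

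The PSI of Upf2 exon 14 was 94.9, 97.9 and 98.0 in siNT, 91.0 and 94.6 in the Fubp1, 83.4 and 93.4 in the Khsrp, 52.4 and 52.0 in the double and 97.1 and 96.7 in the Rbm38 knockdown. Only the double knockdown passed (log2 odds -4.75 ± 0.48 SE, limma adjusted p = 8.2e-06). Exon 15 measured 98.6, 99.3 and 98.1 in siNT, 94.9 and 93.3 in the Fubp1, 92.8 and 95.3 in the Khsrp, 68.0 and 64.2 in the double and 98.3 and 98.7 in the Rbm38 knockdown (double: limma adjusted p = 5.2e-07). In the Fubp1 and Khsrp knockdowns exon 15 was lower by 4.6 points each, with adjusted p of 0.0074 and 0.033 but a difference under 10 points. Both exons differed between the double and each single knockdown (limma adjusted p between 7.6e-06 and 5.1e-04), but with the library number set as a term the differences from the Fubp1 knockdown, -42.1 and -27.3 points, missed the threshold (0.076 and 0.23).

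Further upstream, Upf2 exons 8, 9 and 13 fell from 99.5, 97.6 and 99.8 to 82.8, 79.7 and 89.4 (limma adjusted p = 8.9e-04, 1.8e-04 and 0.0072), while exons 10 to 12 between them stayed between 99.7 and 100. Exons 8 and 9 measure 86 and 109 nt, neither a multiple of 3, and 195 nt together, which is one. Exon 15 skipped alone leaves 949 of 1269 amino acids, with the stop 3 nt past the join and 769 nt upstream of the last junction.

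Smg1 and Smg6 also had called events, all lower in the double knockdown. A 58 nt exon of Smg1, not matched to a coding transcript of the annotation, had PSI of 33.2, 32.2 and 34.5 in siNT, 21.1 and 18.5 in the Fubp1, 44.8 and 21.2 in the Khsrp, 12.1 and 7.72 in the double and 22.95 and 25.2 in the Rbm38 knockdown (double: limma adjusted p = 0.0066). The 2 Khsrp libraries of this exon lay on either side of siNT. One alternative 3′ splice site of Smg1 went from 93.8 to 71.8 (adjusted p = 0.010) and another from 97.5 to 85.1 (adjusted p = 0.0087), the first with 75.1 in 1 of the Rbm38 libraries. Without double knockdown A the exon and the first of these sites missed the threshold (adjusted p = 0.239 and 0.121). An 85229 nt intron of Smg6 went from 43.1 ± 14.5 in siNT (SD, n = 3) down to 14.1 ± 4.2 (SD, n = 2; adjusted p = 0.044 in limma) on as few as 11 reads, and missed the threshold under 10 of the alternatives tried.

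XRN2 lost 1 exon near its end, shown here because its loss shifts the frame (GENCODE vM21, GRCm38).
Xrn2 exon 28, 64 nt, chr2:147068792-147068855, plus strand: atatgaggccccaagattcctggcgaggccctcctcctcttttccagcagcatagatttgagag
Xrn2 junction of exon 27 to exon 29, stop codon in capitals: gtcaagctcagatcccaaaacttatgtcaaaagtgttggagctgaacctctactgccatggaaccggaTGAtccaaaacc

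The PSI of Xrn2 exon 28 was 98.4, 97.7 and 99.2 in siNT, 88.3 and 88.8 in the Fubp1, 97.3 and 95.2 in the Khsrp, 71.4 and 69.5 in the double and 99.3 and 98.0 in the Rbm38 knockdown. It fell in the double knockdown (log2 odds -4.44 ± 0.34 SE, limma adjusted p = 6.2e-07). In the Fubp1 knockdown both libraries lay below all siNT libraries and the adjusted p was 3.7e-04, with a difference of -9.9 points, just under the 10 points of a call. Skipped alone, exon 28 leaves 874 of 951 amino acids and a stop 104 nt upstream of the last junction.

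Xrn1 changed in the other direction at 3 of its 4 events. A 191 nt exon, not matched to a coding transcript, was included at 3.31, 1.64 and 6.47 in siNT, 3.34 and 6.98 in the Fubp1, 4.34 and 20.5 in the Khsrp, 26.5 and 29.3 in the double and 4.94 and 1.60 in the Rbm38 knockdown (double: limma adjusted p = 0.010). Introns of 1232 and 2550 nt were retained, from 1.5 and 0.24 in siNT to 17.1 and 14.3 in the double knockdown (adjusted p = 0.0044 and 0.0073). These introns are neighbours and do not count as independent, and they had as few as 36 and 27 reads in a library. Neither was called between the double and Khsrp knockdowns (limma adjusted p = 0.052 and 0.111). A 104 nt exon fell from 98.2 to 88.0 (adjusted p = 0.025), with 81.7 and 94.4 in the 2 double libraries. The exon gain missed the threshold with a library set term (adjusted p = 0.23) and without double knockdown A (0.060).

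Single events were called in the remaining genes. A 629 nt intron of Pan3 fell from 55.1 ± 5.6 (SD, n = 3) to 37.4 ± 6.6 in the Fubp1 and 35.1 ± 5.0 in the double knockdown (SD, n = 2 each; limma adjusted p = 0.018 and 0.015). In Dcp1a, an exon of 114 nt fell from 74.9 ± 7.0 (SD, n = 3) to 55.8 ± 3.5 (SD, n = 2) in the double knockdown (limma adjusted p = 0.0088), with 61.1 in the Fubp1 knockdown (adjusted p = 0.062). The only call of the Rbm38 knockdown was an 837 nt exon of Dcp1b, at 100, 98.8 and 100 in siNT and 89.2 and 84.5 after Rbm38 knockdown (limma adjusted p = 0.044). That exon keeps the frame, and no event was called in that knockdown when any 1 of 10 libraries was left out, siNT C being the exception.

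Taken by reading frame, 26 of the called events were exons and 24 of them matched a coding transcript, 23 as wholly coding exons. Of these 23, 10 had a length that is not a multiple of 3, and each of the 10, skipped alone, gave a first stop more than 50 nt upstream of the last junction. The other 13 keep the original stop when skipped. Neither outcome is particular to the called exons. Tested coding exons without a call did the same, except a 203 nt exon of Cnot6l and a 107 nt exon of Smg1. The stops of those exceptions lay past the last junction. Among all 88 tested coding exons of the decay genes, 47 were not multiples of 3.

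Exon loss and message level were set side by side for the double knockdown. Of the 9 genes with a lower cassette exon, 5 fell in the authors' deposited table (Upf2, Cnot6l, Xrn1, Xrn2 and Cnot10), 1 rose (Dcp1a) and 3 did not pass (Cnot2, Cnot4 and Smg1). Of the 13 genes that fell in level there, 8 had no cassette exon called lower. Among them, Pan2, Parn and Exosc10 had few tested cassette exons, and Cnot11 had no tested event at all. Cnot1 and Cnot6, also among the 8, have cassette exons with the authors' own call in the double knockdown. Low levels and called exon losses thus met in some genes and not in others, as far as exons could be tested. Whether one follows from the other was not tested.

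The double knockdown was tested against each single one. It differed from the Fubp1 knockdown at 21 of the 382 events (4.86% of all tested events) and from the Khsrp knockdown at 27 (5.34%). Of the 35 events called against siNT, 16 were also called against both single knockdowns, and 5 were called against siNT in a single knockdown as well. These overlaps were not counted over all events, so whether they are particular to the decay genes was not tested. With a term for the library number set, 2 events were called between the double and Fubp1 knockdowns, although differences such as those of Upf2 exon 14 (-42.1 points), Cnot2 exon 7 (-28.3 points, smaller than without the term) and Xrn2 exon 28 (-19.3 points) kept most of their size; 24 events were called against siNT, 22 of them among the 35; the double and Fubp1 libraries lie in different number sets, so that difference rests on siNT C alone for the step between the sets.

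Beyond the 40, other genes of the same pathways were read from fixed lists. Over all tested genes 13.2% rose and 13.7% fell in the double, and 12% and 10.5% in the Fubp1 knockdown. The shares were 3.82% and 4.34% in the Khsrp, and 7.96% and 7.02% in the Rbm38 knockdown. Among 13 partners of deadenylation, 4 rose and 6 fell in the double knockdown, 5 rose and 1 fell in the Fubp1, 2 rose and 4 fell in the Khsrp, and 1 rose and 3 fell in the Rbm38 knockdown of the authors' deposited table. Btg2, which stimulates deadenylation, rose from 0.99 to 3.57 RPKM in the double knockdown (log2 fold change 1.86, FDR 1.5e-17) and Ago1 rose from 9.91 to 22.04 RPKM in the Fubp1 knockdown (1.23, FDR 2.8e-16), in the authors' deposited table. Btg1, the relative of Btg2, rose in the Fubp1 knockdown too (1.19, FDR 2.0e-14, authors' deposited table). The poly(A)-binding protein gene Pabpc4, chosen after its values were seen because it passed in 3 knockdowns, fell from 69.8 RPKM to 37.8 in the Khsrp (-1.0, FDR 5.8e-08), 35.7 in the double (-1.04, FDR 1.7e-09) and 39.2 in the Rbm38 knockdown (-0.94, FDR 2.5e-07), in the authors' deposited table.

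Among 15 decapping activators, 3 rose and 1 fell in the double, 5 rose and 2 fell in the Fubp1, 1 rose and 2 fell in the Rbm38, and none passed in the Khsrp knockdown of the authors' deposited table. Pnrc1 encodes a coactivator that also binds the decapping complex. It rose from 4.44 RPKM to 21.2 in the Fubp1 (1.78, FDR 7.1e-13) and 13.5 in the double knockdown (1.75, FDR 1.4e-12), per the authors' deposited table. The RPKM rise of Pnrc1 in the Fubp1 knockdown was larger than its log2 fold change. Lsm3 (-1.13, FDR 0.029) and Lsm6 (-0.84, FDR 0.0019), of the LSM ring, fell in the Fubp1 knockdown, per the authors' deposited table. Among 13 exosome cofactors, 1 rose and 4 fell in the double, 2 fell in the Fubp1, 1 rose in the Khsrp and 3 fell in the Rbm38 knockdown. Ttc37, of the cytoplasmic SKI complex, fell from 22.0 RPKM to 13.0 in the Fubp1 (-0.91, FDR 4.8e-09) and 8.55 in the double knockdown (-1.31, FDR 5.1e-18) of the authors' deposited table. Skiv2l, the helicase of that complex (-0.78, FDR 8.1e-04), and the nuclear helicase gene Skiv2l2 (-1.0, FDR 1.3e-14) fell in the double knockdown, the latter with 90.01 RPKM in siNT and 44.8 there, per the authors' deposited table.

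Among 15 partners of nonsense surveillance, 5 fell and none rose in the double, 5 fell and 1 rose in the Fubp1, 2 fell in the Khsrp, and 7 fell and 1 rose in the Rbm38 knockdown. Nbas, required for this pathway, fell from 9.48 to 3.43 RPKM in the double knockdown (-1.38, FDR 2.0e-21), in the authors' deposited table. Rbm8a, of the exon junction complex, fell in the Fubp1 knockdown (-0.62, FDR 0.0025, authors' deposited table). Rnps1, another junction protein named after its values were seen, fell in all 4, with log2 fold changes from -0.57 to -0.34 (FDR 5.5e-05 to 0.031, authors' deposited table). Of 12 other binders of message elements, which include Fubp1 and Khsrp themselves, 1 rose and 5 fell in the double, 3 rose and 4 fell in the Fubp1, 2 fell in the Khsrp, and 1 rose and 5 fell in the Rbm38 knockdown. Elavl1, which stabilises AU-rich messages, fell from 110 RPKM to 72.9 in the Fubp1 and 72.3 in the double knockdown. Its log2 fold change was -1.03 in both (FDR 8.0e-11 and 4.4e-11, authors' deposited table), a larger fall than the RPKM values show.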

How the data were processed

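Polyadenylated RNA of 11 libraries was prepared as stranded libraries, per the labels' protocols. The submitters' processing notes name mm10, Salmon 0.14.1 and edgeR without stating their roles. The deposited expression table holds 1 RPKM per group, the authors' log2 fold changes against siNT, and their p-values and FDR (adjusted p-values). It gives no value per library, so no own expression test, error or left-out library was possible. The vast-tools table deposited by the authors gives PSI in percent per library, with inclusion and exclusion reads in its quality text; 1 of its Fubp1 columns, like that sample's title, carries the letter A where the sample's description says replicate B. PSI recomputed from those reads differed by at most 0.05 points. A further deposited table gives PSI per group, slightly above 100 at times and therefore read as a score, with the authors' calls.

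Events needed 10 reads in every library and a mean PSI from 1 to 99; the first entry of each alternative splice site event was left out. limma 3.58.1 (R 4.3.3) was fitted to log2((inclusion + 0.5)/(exclusion + 0.5)) over all 11 libraries with binomial weights and a variance trend on read number. The fit was tested on simulated data. That outcome is not reported here and is not used as evidence for the calls. Replicate libraries differed beyond counting error at 13 to 20.1% of events. Replicate letters did not pair the samples (correlations of A minus B deviations from -0.062 to 0.058). P-values measure the spread between libraries of 1 cell line.

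Exons were matched to GENCODE vM21 (GRCm38) by gene, length and the gene's most common offset, because no source used here names the build of the deposited event coordinates. The 40 genes and all lists were chosen with earlier results of these data known. Genes past the FDR of 0.05 were named, with up to 3 genes per further list, and the 12 called events with the largest PSI differences; any other called event in the text was named after its values were seen. Alternatives covered thresholds, filters, weights, pseudocounts, a library set term, a replicate term and each library left out. A few genes of these lists are not reported here.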

Additional observations from a re-analysis of the deposited data

How the results depend on the processing

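At an FDR under 0.01 in the authors' deposited table, 7 of the decay genes passed in the Fubp1, 3 in the Khsrp and 4 in the Rbm38 knockdown; with a change of at least 1.5-fold, 6 passed in the Fubp1, 5 in the Khsrp and 11 in the double knockdown; and at an FDR under 0.10, 15 passed in the Rbm38 knockdown. All 46 called gene and knockdown pairs kept their direction in the RPKM ratios, though Dcp2 in the Fubp1 knockdown went from -0.37 to -0.03; centring moved all genes by at most 0.023 and could reverse none. For splicing, a fit without weights and with the trend on the mean log odds, 2 choices changed together, called 0 events in the Fubp1, Khsrp and Rbm38 knockdowns, 6 between the double and Fubp1 and 12 between the double and Khsrp knockdowns. A threshold of 5 points gave 9 calls in the Fubp1 knockdown. With a library set term 0 were called in the Khsrp and Rbm38 knockdowns and 2 between the double and Fubp1 knockdowns. In the Rbm38 knockdown 0 were also called with that trend and the weights kept, with mean PSI from 5 to 95, and with the replicate block. The cause of these losses was not tested. With the replicate block, 37 events were called in the double (33 of them among the 35), 6 in the Fubp1 and 2 in the Khsrp knockdown, 21 between the double and Fubp1 and 28 between the double and Khsrp knockdowns. Leaving out 1 library gave 3 to 7 calls in the Fubp1 (3 without Fubp1 A), 0 to 2 in the Khsrp (0 without siNT B or Khsrp A, 1 without siNT A or Khsrp B), 28 to 37 in the double and 0 to 1 in the Rbm38 knockdown, 14 to 22 between the double and Fubp1 and 15 to 29 between the double and Khsrp knockdowns (15 without Khsrp A). Of 322 values of the 12 named events in 17 called pairs, 285 stayed past the threshold, 37 did not and 0 reversed. Events of few reads, such as the Smg6 intron, had no value at a minimum of 20 reads.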

Other observations

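A list of 10 transcripts known as targets of nonsense surveillance was read beside the machinery; several, such as Atf3, Atf4, Ddit3 and Chac1, are also stress-response genes. In the double knockdown 4 of the 10 rose and none fell in the authors' deposited table, and all 10 log2 fold changes were above 0 with a median of 0.57, against 0.001 over all genes. Over all tested genes 13.2% rose and 13.7% fell there, and 11444 of 23378 had a log2 fold change below 0. Atf4 (0.095, FDR 0.83), Chac1 (0.13, FDR 0.86) and Gas5 (0.14, FDR 0.69) were far from passing in the authors' deposited table. The RPKM of Gas5 was 395 in siNT and 620 in the double knockdown, a larger rise than its log2 fold change. Atf3, a transcription factor gene, rose from 5.06 to 14.98 RPKM (1.58, FDR 3.3e-08) and Snhg1, a host gene of small nucleolar RNAs, from 564 to 1489 RPKM (1.33, FDR 0.0040), in the authors' deposited table. Gadd45a (0.77, FDR 0.039) and Ddit3 (0.70, FDR 0.0054) were the others there. After Fubp1 knockdown none rose (12% of all tested genes did) and 4 fell (10.5% of all did): Ddit3 (-1.18, FDR 2.5e-06), Atf4 (-1.12, FDR 9.1e-07), Chac1 (-1.08, FDR 0.0034) and Gas5 (-0.70, FDR 0.0026), per the authors' deposited table. In the Khsrp knockdown Gadd45b rose (0.84, FDR 0.022), and in the Rbm38 knockdown Ddit3 rose (0.60, FDR 0.035) and Gadd45b fell (-1.07, FDR 0.0020), by the same deposited table of the authors. The part of nonsense surveillance in these levels was not tested.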
